A study of Mus musculus with 7 samples.

Results

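The dystrophin-associated protein complex was followed on expression arrays of MN9D cells through 9 of its genes: Dtna, Dtnb, Dmd, Utrn, Dag1, Sntb1, Sntb2, Sgcb and Sgce. They are 9 of the 12393 genes with a probe set of their own. Every probe set annotated to 1 of these genes alone was taken, which gave 26 of the 22626 probe sets tested, and 0 further probe sets named a member together with another gene. Dtna had 6 probe sets, Dag1 and Sntb2 had 4 each, Dmd and Utrn 3 each, Sntb1 and Sgcb 2 each, and Dtnb and Sgce 1 each. The genes were chosen by a list drawn up with the measured log2 differences between the groups of these same arrays known, so the values below are a description and the calls support nothing by themselves.

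MN9D is a mouse dopamine-producing cell line, described in the labels as a dopaminergic neuroblastoma line. Total RNA came from cells labelled as overexpressing the alpha and beta chains of mouse hemoglobin (4 arrays, called globin-labelled here) and from cells carrying an empty vector (3 arrays). Both groups are the same line with no other agent named, and the labels do not say whether a group is 1 clone or whether replicates came from separate cultures, so every error and p-value covers array-to-array variation that could be technical alone. The design text mentions another control array that did not pass quality checks, not analysed here.

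Across the series the 7 arrays were alike in scale, with medians of 8.90 to 8.94 on the log2 scale, and arrays within a group correlated at 0.9985 or more. Of 5 alpha-globin probe sets the 3 that match both Hba-a1 and Hba-a2 were higher by 35.8-fold to 142-fold. The 2 annotated to Hba-a1 or Hba-a2 alone differed by 0.03 and -0.03 on the log2 scale and were not called. The 3 beta-globin probe sets differed by at most 1.26-fold, and of these Hbb-b2 1427865_at alone was called (higher, 0.34 ± 0.07). The group is therefore named by its label wherever a direction is given. Of 6 markers of the dopaminergic line, Th (11.08 against 11.78) and Ddc (9.85 against 10.07) were called lower and Dbh (9.90 against 9.16) higher in globin-labelled than in empty vector arrays, all in the upper part of the range, while Slc6a3 was dim (6.36 against 6.33), and Nr4a2 and Pitx3 were not called. All 6 neuron markers were called, with Stmn2 (10.18 against 11.38) and Tubb3 (10.62 against 11.42) lower in globin-labelled than in empty vector arrays, and Prph, Ina, Snap25 and Syp higher by 0.82 ± 0.06, 0.51 ± 0.05, 0.40 ± 0.05 and 0.17 ± 0.04. The summed log2 signal of the neuron markers was 69.62 to 70.23 in globin-labelled arrays and 69.47 to 70.32 in empty vector arrays, and the part of these markers in the members' values was not tested. Of the 9 skeletal muscle markers 1 was called (Des, higher by 0.38 ± 0.05), with summed log2 signals of 61.46 to 62.22 in globin-labelled arrays and 60.87 to 61.80 in empty vector arrays, and of the 6 astrocyte, 4 oligodendrocyte and Schwann cell and 6 fibroblast markers measured, 0 were called by limma or by the same model without variance moderation (1 at an unadjusted p under 0.05). Globin-labelled array 4 and empty vector array 1 had the lowest means of the hybridisation controls (9.38 and 9.51, against 9.64 to 9.85 on the others). A probe set was called when limma's p-value, adjusted over all 22626 probe sets, was under 0.05, and 39.5% of all probe sets met this (18.3% higher, 21.2% lower in globin-labelled arrays).

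The complex spans the plasma membrane. Dystrophin, or its relative utrophin, holds actin on the inside and binds dystroglycan, which reaches laminin and other matrix proteins on the outside. Sarcoglycans stand beside dystroglycan in the membrane, and dystrobrevins and syntrophins lie beneath it, where syntrophins recruit channels, kinases and neuronal nitric oxide synthase. The complex is best known from muscle, where loss of dystrophin causes muscular dystrophy, and in brain it is found at glial endfeet and at a class of inhibitory synapses.

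RefSeq promoter windows of build GRCm38.p6 matched 5 of the 9 genes, and those of Dtnb and Sgcb are shown because these genes were called on every one of their probe sets and in opposite directions. Utrn was also called on all of its probe sets, but its listed window ends in letters like the end of an intron and is not shown, and Sgce had no match. Each line holds the 250 bases before the most upstream listed start, read 5′ to 3′ on the strand of the gene, and the capitals mark the GC box GGGCGG on either strand.
Dtnb, chr12:3572141-3572390, + strand: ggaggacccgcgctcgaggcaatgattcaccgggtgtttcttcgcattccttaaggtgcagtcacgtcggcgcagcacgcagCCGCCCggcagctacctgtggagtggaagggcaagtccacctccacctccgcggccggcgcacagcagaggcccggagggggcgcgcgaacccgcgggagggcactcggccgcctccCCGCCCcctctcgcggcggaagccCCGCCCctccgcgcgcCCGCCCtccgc
Sgcb, chr5:73647738-73647987, - strand: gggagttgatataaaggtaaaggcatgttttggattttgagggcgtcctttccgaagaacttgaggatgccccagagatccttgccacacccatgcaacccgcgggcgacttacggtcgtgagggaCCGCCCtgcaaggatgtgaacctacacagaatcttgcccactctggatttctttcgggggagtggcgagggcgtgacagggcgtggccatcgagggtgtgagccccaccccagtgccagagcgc
The Dtnb window held 4 GC boxes and 33 CG dinucleotides, and the Sgcb window held 1 GC box and 14, where the median of all 32851 windows of this length was 6 CG dinucleotides. A GC box was found in 32.7% of all windows, so its presence does not set these genes apart. Neither CCAAT (33.8% of all windows) nor TTCCGG (12% of all windows) was found in either window on either strand, which says only that these letters are not in these 250 bases.

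Dtna encodes alpha-dystrobrevin, the cytoplasmic scaffold that binds dystrophin and syntrophins, and it gave the largest differences among the members. Of its 6 probe sets 5 fell in globin-labelled arrays and 1 was not called, and their differences ran from a log2 difference of -3.13 to -0.18. In bulk RNA, fewer cells with the transcript and less transcript per cell cannot be told apart. Levels of different probe sets are not set against each other, since each has its own binding, and only their differences are compared.

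Probe set 1456069_at read 4.24, 4.46, 4.26 and 4.33 in globin-labelled arrays, against 7.53, 7.55 and 7.30 in empty vector arrays. The nearest globin-labelled and empty vector arrays lay 2.84 log2 units apart. The log2 difference was -3.13 ± 0.07 (limma SE), the second most negative of the 20380 probe sets with 1 gene symbol. Its level in globin-labelled arrays stood at the 2.21st percentile of all probe sets, under the 10th percentile of 5.36 to 5.44 on the arrays. In empty vector arrays it stood at the 33.1st. With the globin-labelled arrays in dim signal, the value gives the difference in signal, and a difference in transcript could be larger.

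Probe set 1429768_at read 5.34, 5.14, 5.30 and 4.98 in globin-labelled arrays, against 6.84, 6.65 and 6.71 in empty vector arrays. The groups did not overlap, and all globin-labelled values again lay under the 10th percentile. The log2 difference was -1.54 ± 0.09.

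Probe set 1419223_a_at read 4.86, 5.39, 5.50 and 5.27 in globin-labelled arrays, against 6.45, 6.63 and 6.80 in empty vector arrays. Its globin-labelled arrays spread more widely than those of the other Dtna probe sets (SD 0.28), with array 1 the lowest, and still lay below every empty vector array. The log2 difference was -1.37 ± 0.14. In the naming of these arrays the suffix "_a_at" marks a probe set designed to match several transcripts of 1 gene.

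The remaining Dtna probe sets differed less. Probe set 1426066_a_at read 6.46, 6.74, 6.80 and 6.65 in globin-labelled arrays, against 6.97, 7.42 and 7.42 in empty vector arrays, a log2 difference of -0.61 ± 0.12. Probe set 1427588_a_at, the brightest of the gene, read 7.96, 7.97, 8.02 and 8.03 in globin-labelled arrays, against 8.45, 8.26 and 8.58 in empty vector arrays, a log2 difference of -0.44 ± 0.07. The groups did not overlap on either.

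Probe set 1425292_at was not called. It read 7.12, 7.39, 7.30 and 7.26 in globin-labelled arrays, against 7.30, 7.67 and 7.37 in empty vector arrays, so that the groups overlapped. The log2 difference was -0.18 ± 0.09, with a 95% confidence interval from -0.39 to 0.02.

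**Figure D1:**
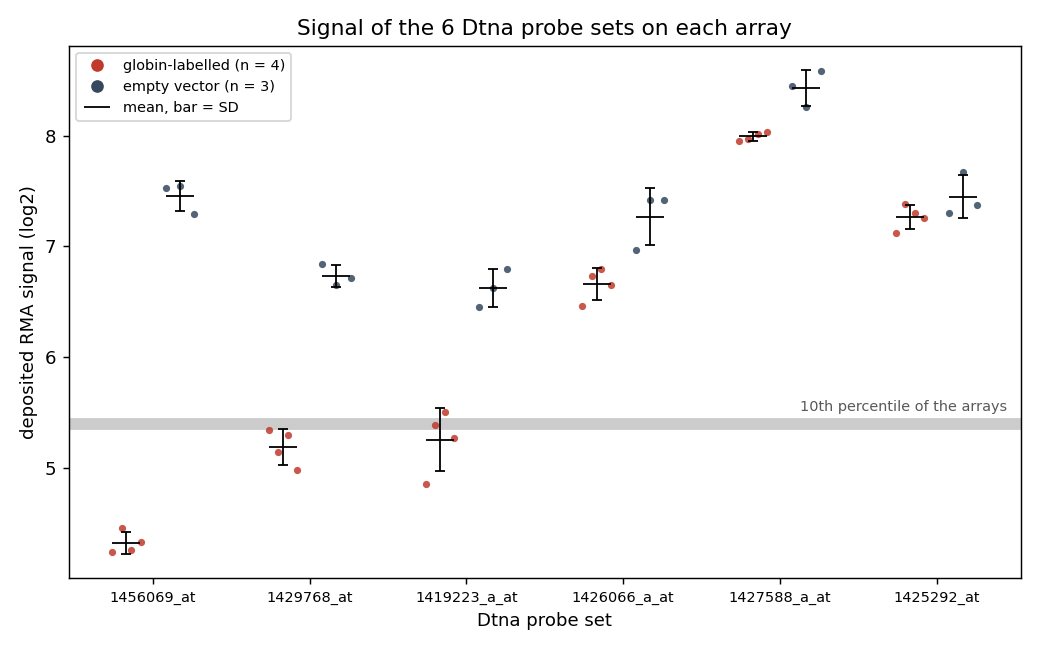
Log2 signal (vertical axis) of each of the 6 Dtna probe sets (horizontal axis, ordered from the most negative difference) on the 4 globin-labelled arrays (red, left) and the 3 empty vector arrays (dark, right), with the mean and SD as bars. The globin-labelled points of the first 2 probe sets lie below the grey band, which is the range of the arrays' 10th percentile (5.36 to 5.44), those of the third lie on both sides of it (4.86 to 5.50), while the groups of 1425292_at overlap.

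The difference between a pair of probe sets on the same array is no ratio of transcript levels, and only its shift between the groups is read. The signal of 1425292_at minus that of 1456069_at was 2.88, 2.93, 3.04 and 2.93 in globin-labelled arrays, against -0.22, 0.12 and 0.08 in empty vector arrays. The groups did not overlap, and the shift between their means was 2.95, with 1456069_at in dim signal on the globin-labelled arrays.

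Of the 15 pairs of Dtna probe sets, 12 had a within-array difference whose groups did not overlap, where 27.2% of all 12821 pairs of probe sets of 1 gene did so. The 3 pairs that overlapped were 1419223_a_at with 1429768_at, both with large falls, and 1427588_a_at with 1425292_at and with 1426066_a_at. The largest fall was that of 1456069_at alone, followed by those of 1429768_at and 1419223_a_at, whose falls differed by 0.17, less than the spread between arrays of that difference (SD 0.37 in globin-labelled and 0.25 in empty vector arrays). Of the other 3, 1426066_a_at had a more negative difference than 1425292_at, with a within-array difference that did not overlap between groups, and 1427588_a_at overlapped with both. The gap between the largest and smallest difference of the gene was 2.95 log2 units, which ranked 1 among the 4956 genes with 2 or more probe sets (median 0.13) and 1 among the 261 genes with 5 or more (median 0.32). The fall of Dtna was known when the gene was chosen, so the ranks and the share of pairs only describe it. Its 15 pairs are also not independent, since they reuse the same 6 probe sets. Leaving out the probe sets with a mean under the 25th percentile removed 1456069_at, 1429768_at and 1419223_a_at and left 2 of 3 called, with a gap of 0.42. That mean was taken over all 7 arrays, so a fall lowers it and the smaller gap is no check on the larger. In empty vector arrays alone 1456069_at stood at the 33.1st percentile of all probe sets, 1429768_at at the 24.0th and 1419223_a_at at the 22.8th.

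Utrn encodes utrophin, the widely expressed relative of dystrophin, and its 3 probe sets all fell in globin-labelled arrays. Probe set 1426892_at read 7.65, 7.22, 7.30 and 7.0 in globin-labelled arrays, against 8.79, 8.76 and 8.30 in empty vector arrays. The groups did not overlap, and the log2 difference of -1.32 ± 0.16 was the largest among the members outside Dtna. The other probe sets fell less.

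Probe set 1427569_a_at read 8.90, 8.91, 8.72 and 8.83 in globin-labelled arrays, against 9.12, 9.28 and 9.27 in empty vector arrays, a log2 difference of -0.38 ± 0.06. Probe set 1452222_at read 10.73, 10.60, 10.71 and 10.80 in globin-labelled arrays, against 10.95, 11.04 and 11.00 in empty vector arrays, a log2 difference of -0.29 ± 0.05. The nearest arrays of the groups lay 0.22 and 0.15 apart on these probe sets, against 0.65 on 1426892_at. The gap between the largest and smallest Utrn difference was 1.03, rank 35 among the 4956 genes with 2 or more probe sets.

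Dmd, which encodes dystrophin, gave signals at the bottom of the arrays in both groups. Its 3 probe sets averaged 4.92 ± 0.04, 4.15 ± 0.04 and 3.88 ± 0.06 in globin-labelled arrays, against 4.88 ± 0.09, 4.07 ± 0.25 and 3.86 ± 0.05 in empty vector arrays (1417307_at, 1430320_at and 1448665_at). By their mean over the arrays they stood at the 6.20th, 1.07th and 0.146th percentile of the tested probe sets. The groups overlapped on each, and the log2 differences were 0.04 ± 0.05, 0.08 ± 0.10 and 0.02 ± 0.05, with 0 called by limma, by the unmoderated model or at an unadjusted p under 0.05. On 1430320_at the third empty vector array read 4.36 and the others 3.92 and 3.93, and without it the probe set was called higher in globin-labelled arrays (0.23, limma adjusted p = 0.00523), all within dim signal.

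Dtnb encodes beta-dystrobrevin, the relative of alpha-dystrobrevin found in neurons and other tissues outside muscle, and it rose. Its probe set 1437651_a_at read 9.40, 9.29, 9.47 and 9.27 in globin-labelled arrays, against 8.86, 9.11 and 8.94 in empty vector arrays. The groups did not overlap, and the log2 difference was 0.39 ± 0.07, opposite in sign to all 6 differences of Dtna.

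Dag1 encodes both chains of dystroglycan, the receptor for laminin and agrin. Of its 4 probe sets, 1426778_at alone was called, with 10.49, 10.42, 10.38 and 10.42 in globin-labelled arrays, against 10.36, 10.30 and 10.22 in empty vector arrays and a log2 difference of 0.13 ± 0.05. That call was lost under 9 of 14 alternatives, among them leaving out any 1 of the 4 globin-labelled arrays or empty vector array 2 or 3 (0.10 to 0.17 over all alternatives). The other probe sets differed by 0.05 ± 0.05 (1423872_a_at), 0.04 ± 0.04 (1426779_x_at) and 0.10 ± 0.04 (1456131_x_at), and their groups overlapped. Without empty vector array 3 the last was called higher (0.14, limma adjusted p = 0.0358).

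The syntrophins are adaptors that carry a PDZ domain and bind dystrobrevin and dystrophin, and Sntb1 and Sntb2 were not tested against each other. Of the 4 probe sets of Sntb2, 3 fell and the fourth missed the threshold. Probe set 1420372_at, the brightest, read 9.35, 9.30, 9.32 and 9.19 in globin-labelled arrays, against 9.48, 9.57 and 9.41 in empty vector arrays. Probe set 1436986_at read 7.71, 7.73, 7.70 and 7.52 in globin-labelled arrays, against 8.00, 7.81 and 8.06 in empty vector arrays. In each the groups lay apart by a margin smaller than the range of the empty vector arrays.

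The 4 Sntb2 log2 differences were close together, at -0.29 ± 0.07 (1436986_at), -0.26 ± 0.07 (1420371_at), -0.21 ± 0.08 (1449840_at, not called) and -0.20 ± 0.05 (1420372_at). The call of 1420371_at was lost without empty vector array 1 or 3, that of 1420372_at without empty vector array 2, and those of all 3 without variance moderation and when the arrays with the lowest hybridisation controls were both left out, an alternative added after seeing the data. With a model term for the replicate number (a replicate block), which also drops globin-labelled array 4, the calls of 1420371_at and 1420372_at were lost. Without empty vector array 2, 1449840_at was called lower (-0.30, limma adjusted p = 0.0125). Sntb1 was not called on either probe set (also not at an unadjusted p under 0.05 or without variance moderation), with 6.60 ± 0.01 in globin-labelled arrays against 6.58 ± 0.06 in empty vector arrays on 1421455_at, and 6.54 ± 0.04 against 6.62 ± 0.11 on 1451938_a_at. The Sntb1 log2 differences were 0.02 ± 0.04 and -0.07 ± 0.05, with 95% confidence intervals from -0.08 to 0.11 and from -0.20 to 0.05. By their mean over the arrays these probe sets stood at the 22.1st and 21.9th percentile of the tested probe sets. In such dim signal the intervals bound the difference in signal, and a difference in transcript could be larger.

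Both sarcoglycan genes among the members fell. Sgcb, the beta-sarcoglycan gene, read 10.90, 10.89, 10.82 and 10.84 in globin-labelled arrays, against 11.11, 11.11 and 11.14 in empty vector arrays on 1419668_at. The groups lay 0.21 apart there at their nearest arrays, and the log2 difference was -0.26 ± 0.04. Its other probe set, 1419667_at, averaged 9.71 ± 0.13 in globin-labelled arrays, against 10.02 ± 0.09 in empty vector arrays. Its fall of 0.30 ± 0.07 was not called when the arrays with the lowest hybridisation controls were both left out. Nor was it called without variance moderation or with the replicate block. Sgce encodes epsilon-sarcoglycan, a maternally imprinted gene expressed in brain whose loss causes a movement disorder in people. Its probe set 1420688_a_at read 11.17, 11.17, 11.13 and 11.13 in globin-labelled arrays, against 11.28, 11.43 and 11.33 in empty vector arrays, a log2 difference of -0.19 ± 0.05. That call was lost with the replicate block (-0.19, limma adjusted p = 0.0606).

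**Figure D2:**
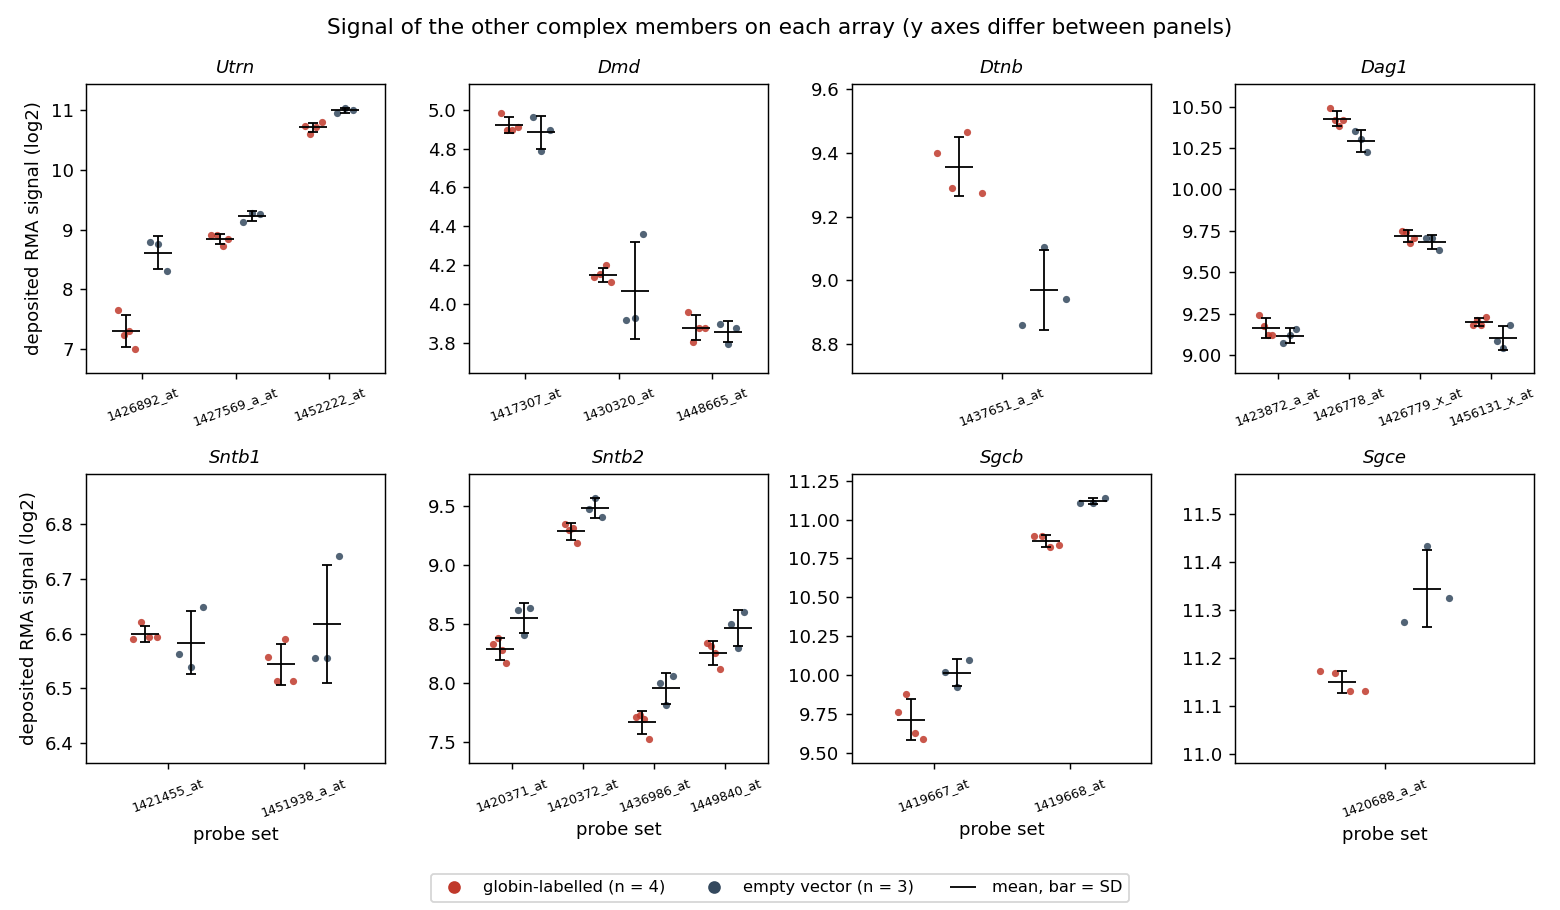
Log2 signal (vertical axes, which differ between panels) of the 20 probe sets of the other 8 genes on the 4 globin-labelled arrays (red, left) and the 3 empty vector arrays (dark, right), with the mean and SD as bars. The groups are apart on all 3 Utrn, both Sgcb and the single Dtnb and Sgce probe sets, and overlap on all Dmd and Sntb1 probe sets.

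Counted together, 16 of the 26 member probe sets were called, 14 lower and 2 higher, where 39.5% of all probe sets were called, 21.2% lower and 18.3% higher. The number called was 11 when the arrays with the lowest hybridisation controls were both left out, and also 11 without variance moderation. Without Dtna, 9 of 20 were lower and 2 higher. The groups did not overlap on 16 of the 26, where this held for 43.5% of all probe sets. The median log2 difference was -0.20 over the members and -0.13 without Dtna, against 0.01 over all tested probe sets. Since the same comparison was known when the genes were listed, nothing is read from these shares. The probe sets with a fall of 2-fold or more were 3 of Dtna and 1 of Utrn, and 0.535% of all probe sets fell that far. With the brightest probe set standing for each gene, 7 of 9 genes were called, 5 lower and 2 higher, where 40.7% of 12393 genes were called.

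**Figure D3:**
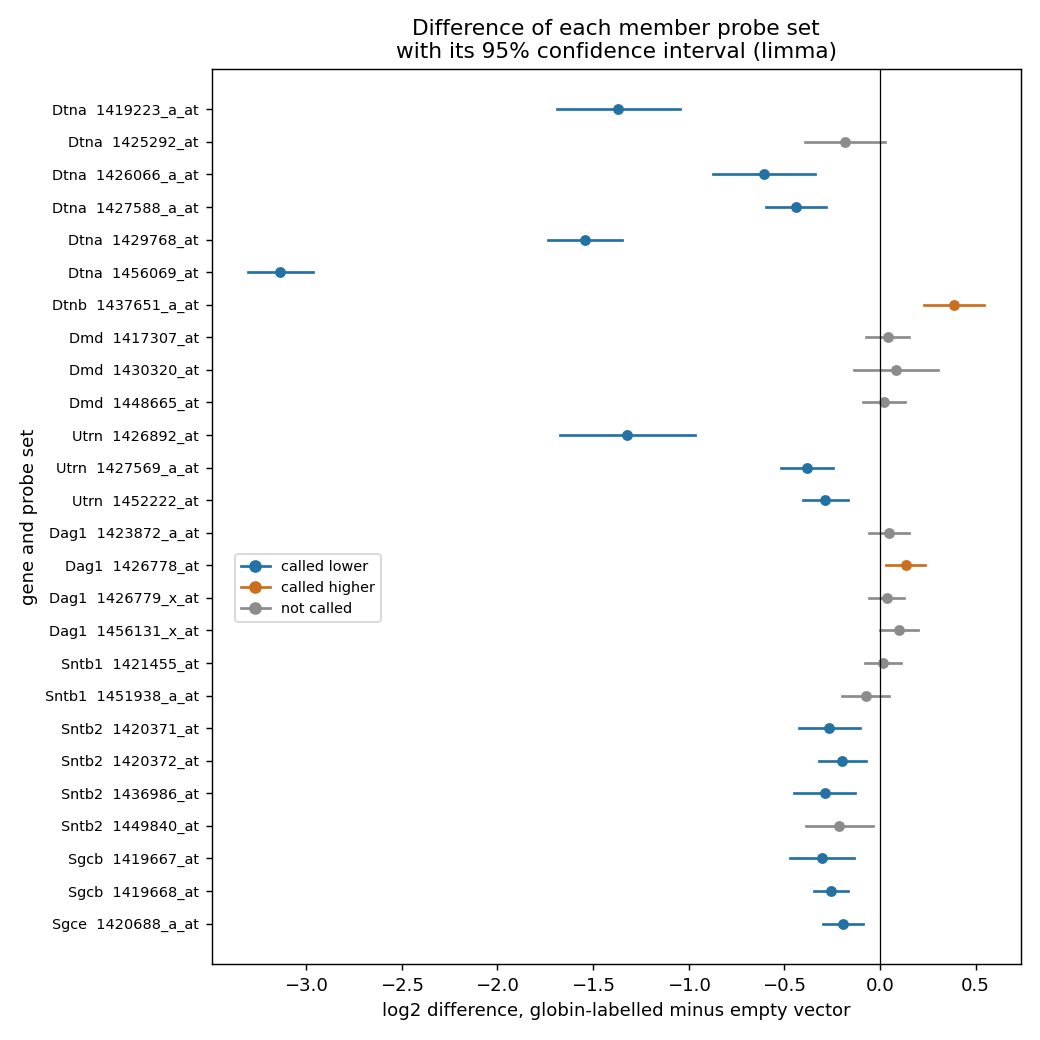
Log2 difference (horizontal axis, globin-labelled minus empty vector) of the 26 member probe sets (vertical axis) with limma's 95% confidence interval, coloured by call. Dtna runs from -3.13 to -0.18 and Utrn from -1.32 to -0.29, while the probe sets of Dag1, Sntb2 and Sgcb lie close together within each gene.

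Other genes of the complex and its partners were taken from 4 lists, chosen with earlier results of these data known, and counted by the brightest probe set of each gene. Of 9 other subunits 5 were measured, and 3 of them rose and 0 fell, where 20.6% of all genes rose and 20.1% fell (0 lower by limma, by the unmoderated model and at an unadjusted p under 0.05). Sspn, which encodes sarcospan, a membrane protein bound to the sarcoglycans, averaged 9.96 ± 0.05 in globin-labelled arrays, against 9.19 ± 0.06 in empty vector arrays on 1417644_at, a log2 difference of 0.77 ± 0.05 (limma adjusted p = 2.82e-06). Its second probe set rose by 0.40 ± 0.08. Sgca, the alpha-sarcoglycan gene, rose by 0.30 ± 0.06 (limma adjusted p = 0.00522). Sntg1, a neuronal syntrophin gene, rose by 0.31 ± 0.09 in dim signal, at the 24.6th percentile by its mean over the arrays. Its call was lost without empty vector array 2 or 3 or without globin-labelled array 2 or 4. It was also lost without variance moderation and with the replicate block. Sgcd and Sntg2 differed by 0.05 ± 0.04 and -0.08 ± 0.08 and were not called.

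Among 18 measured intracellular partners 4 rose and 4 fell, where 20.6% of all genes rose and 20.1% fell. Nos1, the neuronal nitric oxide synthase that binds syntrophin, averaged 11.54 ± 0.08 in globin-labelled arrays, against 9.23 ± 0.23 in empty vector arrays on 1438483_at (log2 difference 2.31 ± 0.10, limma adjusted p = 3.23e-07), and its other probe set rose by 1.45 ± 0.07. Plec, which encodes the cytoskeletal linker plectin, rose by 0.44 ± 0.06 (limma adjusted p = 3.39e-04). The adaptor gene Grb2 fell by 0.77 ± 0.05 (limma adjusted p = 6.14e-06) and Ablim1, an actin-binding protein gene, fell by 0.43 ± 0.06 (limma adjusted p = 2.92e-04).

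Of 12 measured genes on the list of extracellular ligands of dystroglycan, which also holds Nid1, 6 rose and 1 fell, against the same 20.6% and 20.1% of all genes. The gene that fell was Nid1, which encodes nidogen, a basement membrane linker of laminin rather than itself a ligand of dystroglycan. Nid1 averaged 9.84 ± 0.08 in globin-labelled arrays, against 11.13 ± 0.02 in empty vector arrays on 1416808_at (log2 difference -1.30 ± 0.05, limma adjusted p = 1.79e-07). Its second probe set fell by 1.40 ± 0.10. Among laminin chains Lamb1 rose by 0.34 ± 0.05 on the brightest of its probe sets (limma adjusted p = 6.08e-04) and Lama4 rose by 0.21 ± 0.04 on its brighter probe set (limma adjusted p = 0.00396), while the other Lama4 probe set fell by 0.20 ± 0.06, a call lost without globin-labelled array 3 or any 1 of the empty vector arrays. Hspg2, the perlecan gene, rose by 0.21 ± 0.05 and by 0.46 ± 0.05 on its 2 probe sets (limma adjusted p = 0.00805 and 6.21e-05).

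Of 13 measured genes that glycosylate dystroglycan 2 rose and 1 fell, where 40.7% of all genes were called in either direction. Pomgnt1, which extends the O-mannose core, fell by 0.30 ± 0.04 (limma adjusted p = 3.18e-04). Pomt1, a subunit of the enzyme that adds the first mannose, and B4gat1, which primes the laminin-binding glycan, rose by 0.22 ± 0.05 and 0.27 ± 0.06 (limma adjusted p = 0.00789 and 0.00468). Over the 4 lists, 15 of 48 genes rose and 6 fell, where 20.6% of all genes rose and 20.1% fell, with a median log2 difference of 0.07, against 0.02 over all genes. Over all 82 probe sets of these genes 21 rose and 17 fell, where 18.3% of all probe sets rose and 21.2% fell, so the balance depends on the probe set used. For example, Lamc1 was counted as higher and Dpm1 as not called. Dimmer probe sets of these genes were called lower, at -0.47 ± 0.12 for Lamc1 and -0.42 ± 0.05 for Dpm1.

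The rule on members used no position, so the genes beside each member were read too, up to 5 measured genes on either side in the RefSeq gene order of GRCm38.p6. Over all members 36 of 87 neighbours were called, 14 higher and 22 lower. Of all genes 40.7% were called, 20.6% higher and 20.1% lower, so the total called was near the share of all genes. Beside Dtna, 2 of 10 rose and 2 fell. The nearest on either side, Mep1b and Mapre2, differed by 0.04 ± 0.05 and 0.35 ± 0.11. Mapre2 was called with overlapping groups, and not called without globin-labelled array 3 or 4 or empty vector array 2 or 3. On the Mep1b side Rnf138, B4galt6, Ttr and Dsg2 differed by -0.07 ± 0.05, 0.17 ± 0.04, 0.06 ± 0.05 and 0.04 ± 0.07, and B4galt6 alone was called. On the Mapre2 side Zfp397, Zfp35, Zfp24 and Ino80c differed by -0.14 ± 0.06, -0.12 ± 0.08, -0.29 ± 0.05 and -0.71 ± 0.05, and the last 2 were called. Each neighbour was read on its brightest probe set. On that of Dtna, 1427588_a_at, the difference was -0.44 ± 0.07, and Ino80c fell further. None of the 10 neighbours reached the fall of the dimmer Dtna probe sets 1456069_at, 1429768_at or 1419223_a_at.

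Beside Sntb2, 6 of 10 neighbours fell and 1 rose, where 20.6% of all genes rose and 20.1% fell. Those that fell ranged from Utp4 at -0.19 ± 0.04 to Pdf at -0.50 ± 0.06, a range that held the differences of the 4 Sntb2 probe sets. Beside Sgcb 5 of 10 fell and 0 rose (0 higher by limma, by the unmoderated model and at an unadjusted p under 0.05), from Chic2 at -0.13 ± 0.04 to Ociad1 at -0.38 ± 0.04, and Chic2 was not called without empty vector array 3. Beside Sgce 3 of 10 fell, and its direct neighbour Peg10, an imprinted gene expressed from the paternal copy like Sgce, averaged 6.36 ± 0.15 in globin-labelled arrays, against 8.38 ± 0.09 in empty vector arrays, a log2 difference of -2.02 ± 0.08. Sntb1, itself not called, had 5 higher and 0 lower neighbours (0 lower also by the unmoderated model and at an unadjusted p under 0.05), with Deptor at 2.30 ± 0.04. Beside Utrn, lower on all of its probe sets, 3 of 10 neighbours rose and 2 fell. Beside Dtnb, itself higher, 3 of 7 rose and 1 fell. Only 2 of 10 neighbours of Dmd and 1 of 10 of Dag1 were called, all lower.

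**Figure D4:**
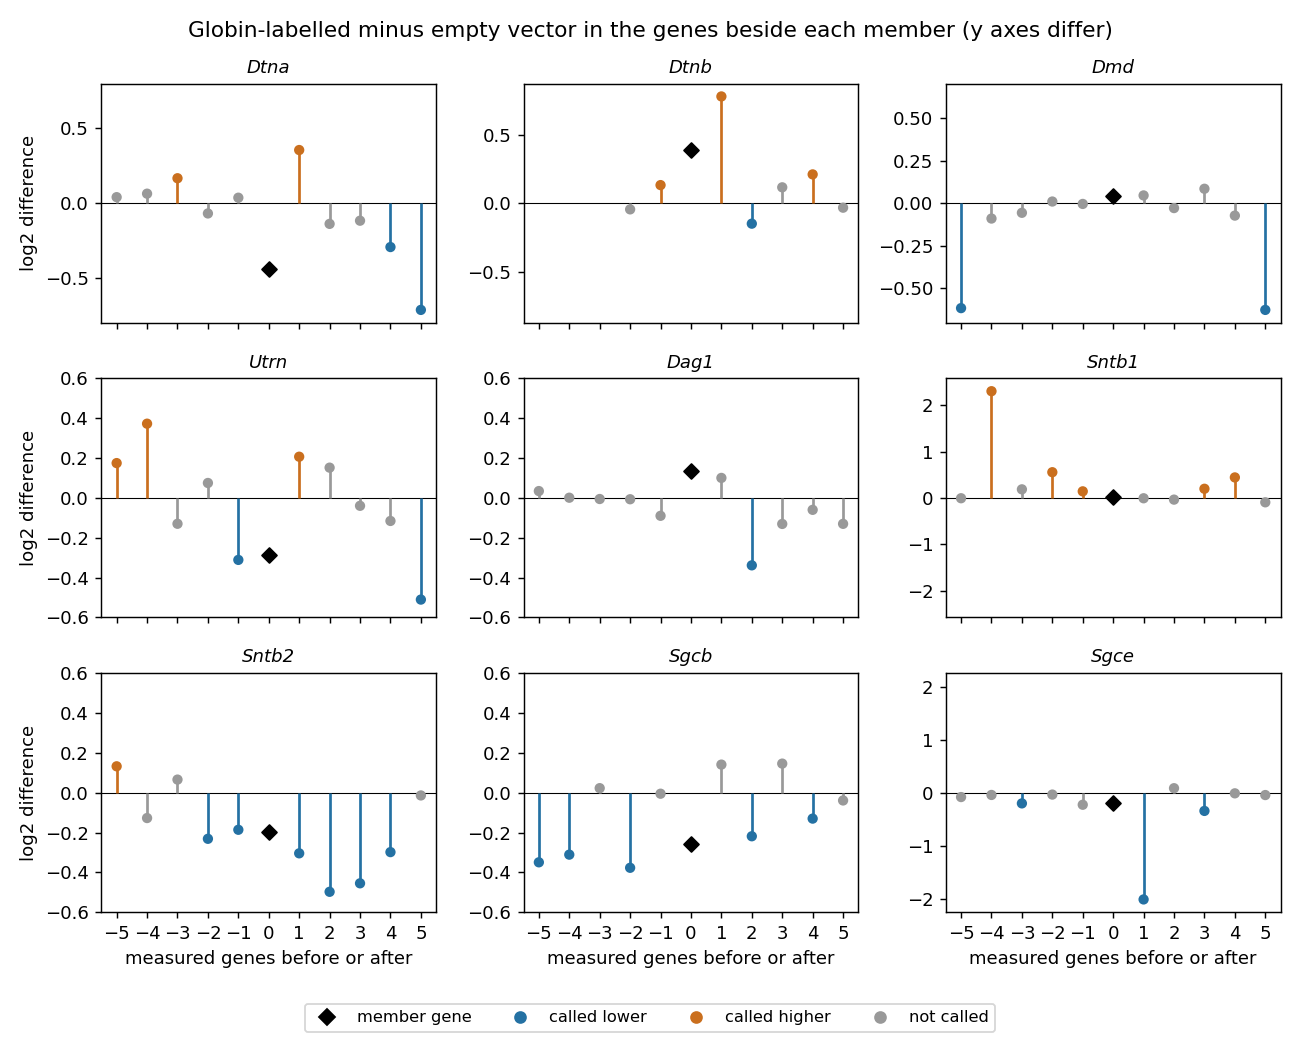
Log2 difference (vertical axes, which differ between panels; globin-labelled minus empty vector) of the measured genes up to 5 places before or after each member (horizontal axis), coloured by call, with the member's brightest probe set as a black diamond. Falls stand on both sides of Sntb2 and Sgcb, Peg10 has the most negative value beside Sgce, and Mep1b and Mapre2, the nearest measured genes on either side of Dtna, lie above 0.

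The profiles most like that of Dtna 1456069_at, by the smallest root mean square distance between log2 values centred over the 7 arrays, were those of Aqp3 on 1450460_at (distance 0.18), Vegfc (0.24), Aqp3 on 1422008_a_at (0.37), Slc4a10 (0.53) and Mt1 on 1422557_s_at (0.55). Aqp3 on 1450460_at averaged 7.61 ± 0.14 in globin-labelled arrays (SD, n = 4) and 10.48 ± 0.13 in empty vector arrays (SD, n = 3), and Vegfc averaged 8.03 ± 0.18 and 10.85 ± 0.09 in the same groups. These 7 points form 2 groups of arrays, so the likeness is mainly that of a fall of similar size.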

How the data were processed

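RNA of 7 MN9D samples was labelled with biotin after one-cycle amplification and hybridised to Affymetrix mouse arrays, per the labels' protocols and the design text. The authors deposited values on the log2 scale, processed with RMA per the submitters' processing notes. The program used for it is not given in the sources used here. This method forces the arrays to a common distribution, so a shift of the whole transcriptome would be hidden. Identical values on 2 or more arrays occurred in 36.3% of probe sets, and in 8 of the 26 members, which lowers their SD. Arrays have no read depth, and precision is set by their number.

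Groups came from the sample titles. Of 22690 probe sets, 64 controls were left out and 22626 fitted with limma 3.58.1 in R 4.3.3 (lmFit, eBayes, group as the only term, 5 residual and 9.1 total degrees of freedom, two-sided, Benjamini-Hochberg adjusted). The script was first tested on simulated data with known changes. Values after ± are limma standard errors for differences and SDs (n = 4 globin-labelled, n = 3 empty vector) for means. The platform annotation gave 20380 probe sets 1 symbol, 691 several and 1555 none. For counts of genes, each of the 12393 was represented by its brightest probe set over all arrays.

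The members, lists, neighbours and named genes (every member probe set, up to 4 called genes per list by p, the 5 nearest profiles, the neighbours of Dtna, and Peg10) were chosen with earlier results of these data known. The neighbours Deptor, Ociad1, Chic2, Utp4 and Pdf were named after their values were seen. No test was made between member probe sets. Alternatives were 2 other scalings, a filter on dim probe sets, trended robust variances, no moderation, a replicate block, gene means over probe sets, and leaving out arrays.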

Additional observations from a re-analysis of the deposited data

Results flagged for a closer look

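In 72 named probe sets the 4 globin-labelled arrays were searched for 1 array far from the rest, by Dixon's ratio of its gap to the group's range at the 95% critical value. For normal values without repeats chance finds such an array in about 1 in 20 groups, and 8 were found. On Mep1b 1418215_at and Zfp397 1425361_at the other 3 arrays held identical values, which fixes the ratio at 1. That rate therefore does not hold for these data, and the number found is not read against it. Among the members these were Dmd 1417307_at, where globin-labelled array 1 read 4.99 and the others 4.90 to 4.91, Sntb1 1421455_at, where array 2 read 6.62 and the others 6.59, and Sntb2 1436986_at, where array 4 read 7.52 and the others 7.70 to 7.73. Beside the members, array 4 read 5.23 on Mep1b 1418215_at with the others at 5.07, and 6.59 on Peg10 1427550_at with the others at 6.26 to 6.31, and array 1 read 9.53 on Zfp397 1425361_at with the others at 9.65. Array 2 read 10.60 on Plec 1434610_at with the others at 10.69 to 10.70, and array 4 read 12.28 on Utp4 1423884_at with the others at 12.32 to 12.33. The groups of 3 empty vector arrays are too small for this search.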

How the results depend on the processing

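Over 356 recomputed values of the 26 member probe sets, 322 kept their direction and side of the threshold, 24 calls were lost, 5 were gained and 5 turned in sign. The values that turned, none of them called, were those of Dmd 1417307_at, Dmd 1448665_at and Sntb1 1421455_at, which ranged from -0.0069 to 0.0794, from -0.0087 to 0.0476 and from -0.0064 to 0.0492 with 1 array left out, and that of Sntb1 1421455_at, at -0.0168, under quantile normalisation. Among other named genes Dsg2 1460380_at ranged from -0.0303 to 0.0832 and Mep1b 1418215_at from -0.002 to 0.055 with 1 array left out, and Mep1b stood at -0.002 with the replicate block. Every call of Dtna, Dtnb and Utrn held under each alternative in which the probe set was fitted. Left out 1 at a time, the arrays gave 15 to 16 called member probe sets, 5 Dtna probe sets in each case, 5 to 7 member genes, 32 to 36 partner probe sets, 18 to 21 partner genes, 31 to 35 neighbours and 7803 to 8271 of all probe sets. Without the probe sets whose mean over all arrays was under the 25th percentile, a mean that a fall lowers, 2 of 3 Dtna probe sets were called, since 3 were removed. Same-numbered arrays of the groups deviated in opposite ways (correlations -0.36, -0.30 and -0.14). Arrays of different number were not compared, so whether the numbers pair the arrays was not settled. With the replicate block, which also drops globin-labelled array 4, 4 member genes, 13 partner genes and 23 neighbours were called, against 7, 21 and 36. The cause of these lower counts was not tested. Dim signal limits Dmd, Sntb1, Sntg1 and the 3 lowest Dtna probe sets, where background was not measured.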
